A study of Brassica carinata with 12 samples.

Results

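The interaction of ploidy and developmental stage was measured in anthers of synthetic Brassica carinata, as the change from meiosis to mitosis in the haploid minus the same change in the tetraploid. It draws on all 12 libraries of the series, which fall into 4 groups of 3. The haploid (genotype BC) came from Brassica oleracea var. alboglabra as the seed parent and Brassica nigra as the pollen parent. The tetraploid (genotype BBCC) came from the same cross with ovule culture and colchicine treatment, so both forms carry the B and the C genome and differ in dosage as well as in having passed through culture and colchicine. Each form was sampled at a stage labelled meiosis (sporogenesis) and at one labelled mitosis (gametogenesis). The tissue is labelled anther, the protocol for RNA extraction names floral buds, and separate plants are not stated for the 3 libraries of each group. P-values therefore reflect how far libraries of a group spread, and that spread may be technical only.

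In an anther, diploid or polyploid pollen mother cells pass through meiosis and release microspores, which then divide by mitosis into pollen. A layer of nurse cells, the tapetum, feeds them and breaks down as pollen matures. Large gene programmes are switched off after meiosis and others are switched on in pollen. In a haploid hybrid of this kind the chromosomes lack homologous partners at meiosis, and balanced spores are rarely formed. A whole anther holds all of these cells, so fewer cells of a type and less RNA per cell cannot be told apart here. Whether the forms were cut at the same point within a labelled stage cannot be told apart from a difference in the change itself. No gene names accompany the IDs in the files used here, so marker genes of the anther could not be read and 1 ID is given per kind of interaction. The ID carries the chromosome.

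Changes are log2 fold changes, given with an approximate standard error (SE), the change over the root of the test statistic F. Where a large change rests on few counts, this SE is smaller than counting noise alone and understates the error. An interaction of 1 is a 2-fold difference between the stage changes of both forms. Levels are CPM, which are counts scaled to library size with TMM factors, so every change is relative to the other genes. The quasi-likelihood test of edgeR was used, with Benjamini-Hochberg adjustment over the 51860 genes tested, and "called" means an adjusted p under 0.05. Total counts per library lay between 15769687 and 16793767.

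The interaction was called for 15813 genes, which is 30.5% of those tested. Of all genes tested, 15.6% had a called interaction in the positive direction and 14.9% in the negative direction. These signs say little about the form of the change, because a weaker rise and a stronger fall in the haploid both give a negative value. Called genes were therefore sorted by the stage change called in each form. At this threshold 63.8% of tested genes changed with stage in the haploid (33.3% rose, 30.4% fell) against 72% in the tetraploid (37.3% rose, 34.7% fell). Of the called genes, 8689 (54.9%) moved in the same direction in both forms but by different amounts, 5829 (36.9%) were called in 1 form, and 1185 (7.49%) moved in opposite directions. A further 110 genes fitted none of these kinds.

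The stage change was most often the smaller one in the haploid. Among called genes, 11086 (70.1%) had a smaller stage change in the haploid and 4727 (29.9%) a smaller one in the tetraploid. The median size of the stage change, regardless of sign, was also smaller in the haploid over all genes tested, at 0.68 against 0.87. Among called genes, which all genes tested include, these medians were 0.73 and 1.12. Among genes with no called interaction, the interquartile range of the change was narrower in the haploid (-0.57 to 0.77) than in the tetraploid (-0.68 to 0.87). The lean is thus not confined to called genes. Genes called with an interaction of at least 2-fold were 13.3% of those tested (5.85% positive, 7.48% negative), and those of at least 4-fold were 5.75%. At 2-fold, 4935 had the smaller change in the haploid against 1976 in the tetraploid. The smaller change lay in the haploid for between 69.0% and 71.9% of called genes under each of 23 other settings. The split by sign was less stable, with 51.1% of called genes positive in the counts and 40.5% positive in the deposited FPKM values (log2(FPKM + 1), limma-trend) without a minimum level.

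**Figure D1:**
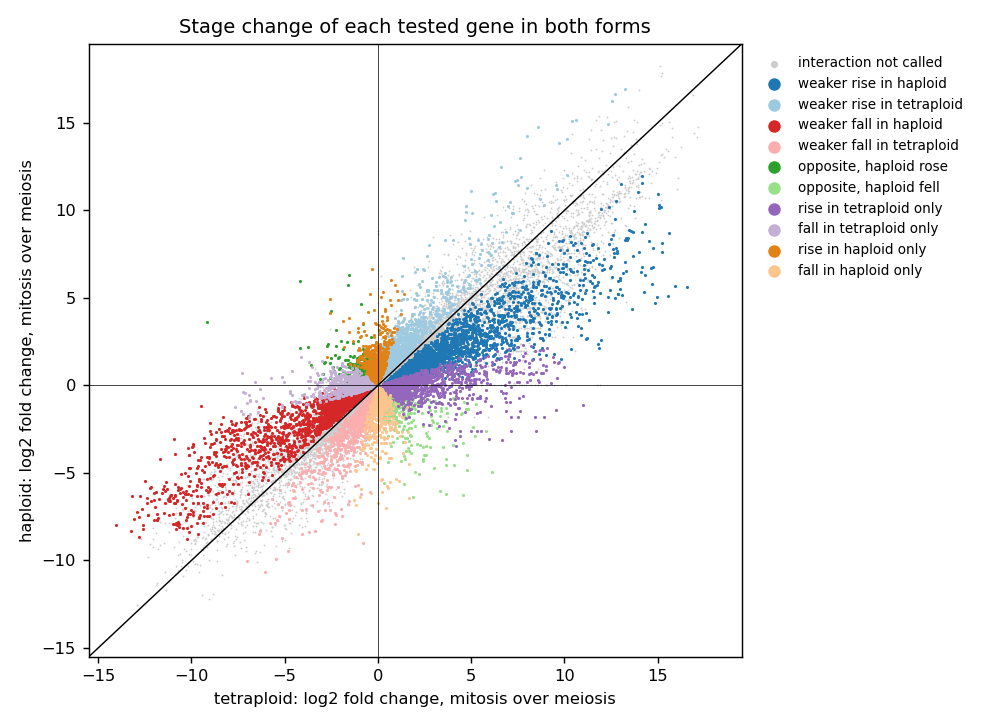
Each point is a gene, with its log2 fold change from meiosis to mitosis in the tetraploid on the x axis and in the haploid on the y axis. Grey points had no called interaction, colours mark the 10 kinds and the diagonal marks equal change. The weaker changes of the haploid (dark blue, red) lie between the diagonal and the horizontal line at 0, and changes called in the tetraploid and not in the haploid (purple shades) lie along that line. Fitted values far from 0 belong to genes with few or no counts in a group and depend on the fit.

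Weaker rises in the haploid were counted for 3239 genes (20.5% of called genes). Over the 2755 of them with at least 10 counts in every group, the median rise was 1.90 in the tetraploid and 0.96 in the haploid. The median ratio of the haploid to the tetraploid change was 0.518 (interquartile range 0.403 to 0.633). Because genes were called for a difference, these medians describe the kind and do not measure its strength. The median log2 CPM of the 3239 genes was 2.75, 2.73 and 2.74 in the haploid libraries at meiosis and 2.09, 2.09 and 2.09 in the tetraploid libraries. At mitosis it was 4.12, 4.13 and 4.13 in the haploid and 4.63, 4.63 and 4.62 in the tetraploid. The haploid median thus started above the tetraploid one and ended below it, with no overlap between libraries at either stage. The genes were chosen from these same libraries, which favours this pattern, so the lack of overlap is a description. By calls at each stage, 593 of the 3239 genes were higher in the haploid at meiosis and lower at mitosis. At meiosis the share of counts of all 3239 genes was 5.85% ± 0.0369 (SD, n = 3) for the haploid against 4.28% ± 0.0192 for the tetraploid. At mitosis the shares were close, at 23.2% ± 0.158 against 23.4% ± 0.0653.

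A weaker rise can come from a higher start, a lower end or both. Over all genes tested, a ploidy difference was called for 38.3% at meiosis (haploid higher in 19.5%, lower in 18.8%) and for 47.7% at mitosis (23.3% and 24.4%). Of the weaker rises in the haploid, 813 had a ploidy difference called at meiosis and not at mitosis, in each case with the haploid higher. Another 1151 had one called at mitosis and not at meiosis, with the haploid lower. In 593 the haploid was higher at meiosis and lower at mitosis, so the levels crossed. In 452 it was higher at both stages and in 178 lower at both, and 52 had no ploidy difference called at either stage.

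BcaB05g24422 on chromosome B05 had the largest interaction among weaker rises in the haploid that met the level limits (10 counts in every group, summed over its 3 libraries, and a mean of 10 CPM in the highest group). It stood at 62.5, 63.5 and 65.9 CPM in the haploid libraries at meiosis and at 0.616, 0.503 and 0.474 CPM in the tetraploid libraries. At mitosis it reached 4487, 4664 and 4510 CPM in the haploid and 4299, 4326 and 4271 CPM in the tetraploid. The forms were far apart at the start and close at the end, where the haploid libraries still all lay above the tetraploid ones. The rise was 6.15 (SE 0.04) in the haploid and 12.96 (SE 0.06) in the tetraploid, an interaction of -6.81 (SE 0.09, adjusted p = 2.25e-33, edgeR). The tetraploid value at meiosis rests on 11, 9 and 8 counts, so the SEs of the tetraploid rise and of the interaction are too small.

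Weaker falls in the haploid were as frequent, at 3241 genes (20.5%). Over the 2834 with at least 10 counts in every group, the median fall was -1.44 in the tetraploid and -0.74 in the haploid, with a median ratio of 0.527 (interquartile range 0.404 to 0.653). The median log2 CPM at meiosis was 4.87, 4.86 and 4.88 in the haploid libraries and 5.17, 5.16 and 5.15 in the tetraploid. At mitosis it was 3.78, 3.79 and 3.77 against 3.34, 3.32 and 3.32. The picture mirrors that of the weaker rises, since the haploid median started lower and ended higher. This pattern too is favoured by the choice of the genes. These were abundant genes at meiosis, with 29.7% ± 0.0830 (SD, n = 3) of haploid counts against 30.04% ± 0.0781 of tetraploid counts. At mitosis they kept 10.4% ± 0.1005 of haploid against 7.95% ± 0.0610 of tetraploid counts.

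The stage of the ploidy difference was evenly split among the weaker falls. In 875 genes the haploid was lower at meiosis with no call at mitosis, and in 885 it was higher at mitosis with no call at meiosis. In 671 it was lower at meiosis and higher at mitosis. In 397 it was higher at both stages, in 327 lower at both, and in 86 no ploidy difference was called.

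BcaB04g18110 on B04 was the named gene of this kind. In the haploid it fell from 728, 733 and 729 CPM at meiosis to 46.3, 49.6 and 48.99 CPM at mitosis. In the tetraploid it fell from 353, 349.95 and 349 CPM to 0.712, 0.930 and 0.713 CPM, the last on 11, 14 and 11 counts. The haploid was above the tetraploid in every library of both stages, and more so at mitosis. The change was -3.92 (SE 0.05) in the haploid and -8.79 (SE 0.08) in the tetraploid, and the interaction was 4.87 (SE 0.12, adjusted p = 3.63e-26, edgeR).

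**Figure D2:**
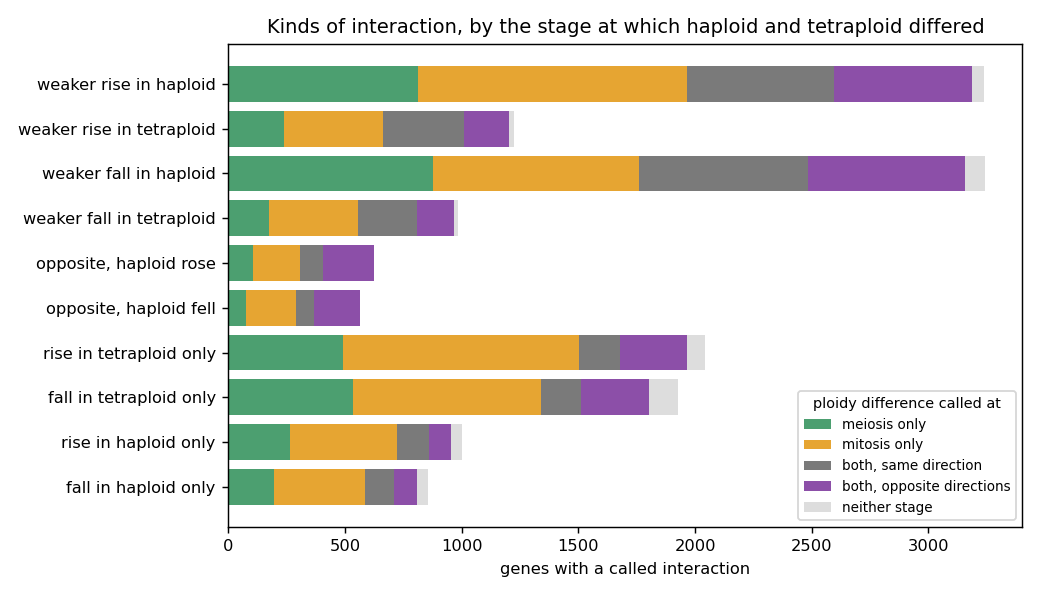
Bars give the number of genes of each kind with a called interaction, divided by the stage at which haploid and tetraploid levels differed at an adjusted p under 0.05. Weaker rises (3239 genes) and weaker falls (3241 genes) in the haploid are the longest bars, and in each of the 10 kinds the ploidy difference was called at mitosis alone in more genes than at meiosis alone, by least in the weaker fall in the haploid (885 against 875).

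The reverse kinds, in which the tetraploid changed less, held fewer genes. Weaker rises in the tetraploid numbered 1225 (7.75%) and weaker falls in the tetraploid 984 (6.22%). Over the 1151 such rises with at least 10 counts in every group, the median rise was 1.82 for the haploid against 0.95 for the tetraploid. Over 914 such falls the medians were -1.73 and -0.88. Weaker rises in the tetraploid took 11.9% ± 0.0435 (SD, n = 3) of haploid counts at mitosis against 8.76% ± 0.0194 of tetraploid counts, from 3.10% ± 0.0129 and 3.42% ± 0.00773 at meiosis. Of the weaker rises, 427 had a ploidy difference called at mitosis and not at meiosis, and 236 the other way round. Among the weaker falls in the tetraploid these counts were 382 and 173. Genes with no called interaction leaned the same way, at 6817 against 4103.

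BcaB07g32728 on B07 rose less in the tetraploid. The haploid libraries stood at 0.860, 0.793 and 1.17 CPM at meiosis and at 325, 325 and 338 CPM at mitosis, the former on 15, 14 and 20 counts. The tetraploid libraries stood at 9.02, 7.26 and 6.93 CPM and at 214, 238 and 224 CPM. The haploid began lower and ended higher, with no overlap. Its interaction was 3.58 (SE 0.17, adjusted p = 3.45e-18, edgeR).

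BcaC01g04308 on C01 fell less in the tetraploid, from 15.6, 16.2 and 13.7 CPM to 10.2, 12.2 and 11.5 CPM. In the haploid it fell from 42.3, 36.1 and 38.2 CPM to 0.721, 0.747 and 0.261 CPM, on 11, 11 and 4 counts. The fall in the tetraploid was small (-0.43, SE 0.12) and that in the haploid large (-6.06, SE 0.18), and the interaction was -5.63 (SE 0.24, adjusted p = 1.81e-19, edgeR).

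Changes called in 1 form were more often those of the tetraploid. A rise was called in the tetraploid and not in the haploid for 2042 genes (12.9%) and a fall for 1927 (12.2%). In the haploid and not in the tetraploid there were 1003 rises (6.34%) and 857 falls (5.42%). The interaction was called for each of these genes, so the difference between the forms was itself tested. A missing call does not show that a gene stood still, and the size of the other form's change was therefore counted. It lay within 0.25 of 0 on the log2 scale for 1231 of the 2042 tetraploid rises, 1461 of the 1927 tetraploid falls, 707 of the 1003 haploid rises and 601 of the 857 haploid falls.

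Among rises in the tetraploid, the median over the 1746 genes with at least 10 counts in every group was 0.94 for the tetraploid against 0.00 for the haploid. The group with the highest mean level was the tetraploid at mitosis for 1784 of the 2042 genes (87.4%), against 25.5% of genes with no called interaction. Sorting for a rise in the tetraploid favours this, so it is a description. The ploidy difference was called at mitosis and not at meiosis for 1011, in each case with the haploid lower. At meiosis and not at mitosis it was called for 491, in each case with the haploid higher. These directions too all but follow from the sorting. BcaC05g28484 on C05 stood at 18.8, 18.9 and 18.8 CPM in the tetraploid at mitosis. It was at 0.504, 0.391 and 0.592 CPM in the tetraploid at meiosis and between 0.528 and 0.850 CPM in the 6 haploid libraries. The 3 tetraploid mitosis libraries stood alone, and the other 9 held 7 to 15 counts each. Its interaction was -5.16 (SE 0.45, adjusted p = 3.8e-11, edgeR).

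Falls in the tetraploid had a median of -0.80 over 1845 such genes, against -0.02 in the haploid. The lowest level was that of the tetraploid at mitosis in 1662 of the 1927 genes (86.2%), against 25.7% of genes with no called interaction. This too is favoured by the sorting. BcaC01g04921 on C01 fell in the tetraploid from 18.1, 20.2 and 20.5 CPM to 0.194, 0.266 and 0.259 CPM, on 3, 4 and 4 counts. In the haploid it stood at 16.3, 20.4 and 18.5 CPM at meiosis and at 15.5, 15.3 and 16.8 CPM at mitosis, where the stages overlapped (log2 change -0.21, SE 0.11, adjusted p = 0.0942, edgeR). Its interaction was 6.10 (SE 0.27, adjusted p = 4.97e-19, edgeR). Without haploid meiosis replicate 1 the small haploid fall was also called, which made it a weaker fall in the haploid.

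Among changes called in the haploid and not in the tetraploid, the median rise was 0.78 over 964 genes with at least 10 counts in every group, and the median fall -0.75 over 776 genes. BcaB05g22205 on B05 rose in the haploid from 0.860, 0.510 and 0.410 CPM to 13.9, 11.4 and 10.05 CPM. The tetraploid libraries stood at 0.728, 0.447 and 0.888 CPM at meiosis and at 0.0647, 0.598 and 1.102 CPM at mitosis. The latter were uneven, with 1, 9 and 17 counts. The 3 haploid mitosis libraries lay above all others, and the interaction was 4.51 (SE 0.61, adjusted p = 4.04e-07, edgeR). It was 5.34 without tetraploid mitosis replicate 3.

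BcaB02g10525 on B02 fell in the haploid from 20.2, 19.3 and 17.1 CPM to 0.197, 0.814 and 0.391 CPM, on 3, 12 and 6 counts. The tetraploid libraries held 18.6, 21.6 and 19.1 CPM at meiosis and 23.4, 22.4 and 23.7 CPM at mitosis. The interaction was -5.55 (SE 0.25, adjusted p = 9.24e-19, edgeR), and -6.21 without haploid mitosis replicate 2. Without tetraploid meiosis replicate 2, haploid mitosis replicate 1 or haploid mitosis replicate 2, the tetraploid change of 0.23 (SE 0.11) was called as a rise, and the gene then counted as opposite.

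**Figure D3:**
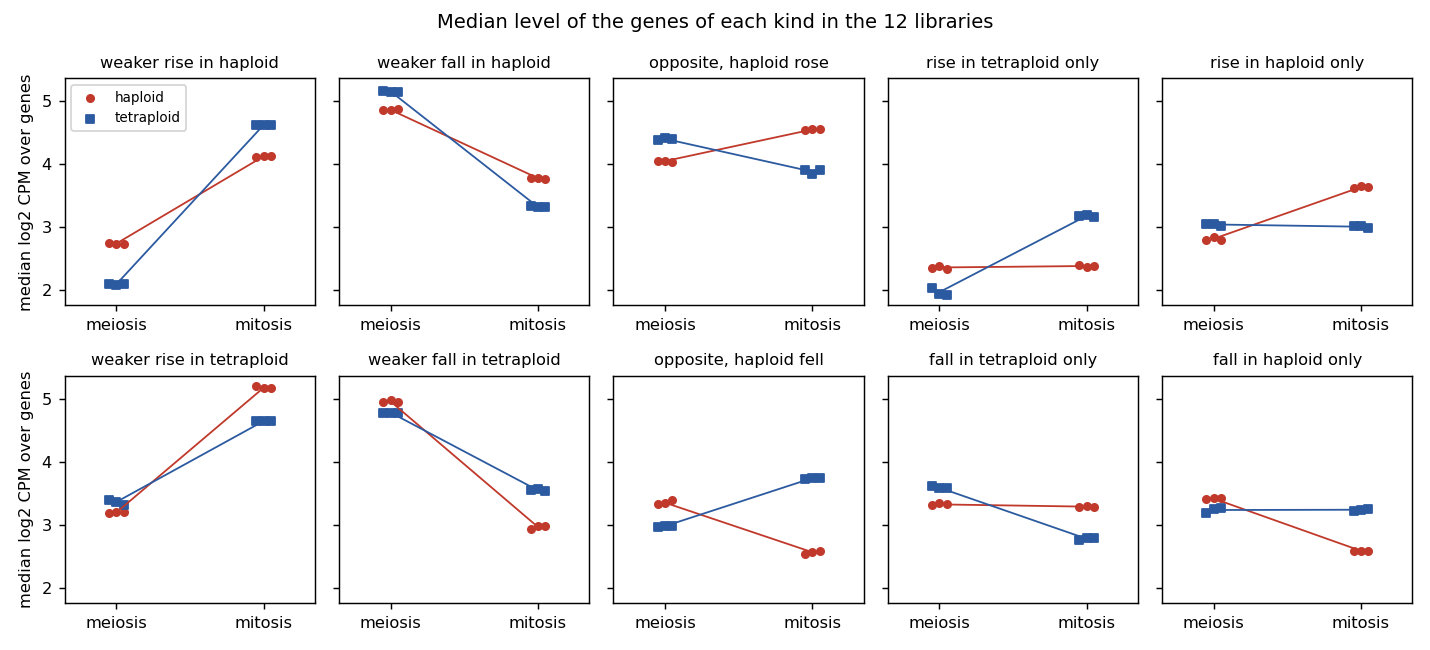
Points give the median log2 CPM over the genes of each kind in each library (haploid red circles, tetraploid blue squares), and lines join the group means. In the weaker rise in haploid, the haploid libraries sit at 2.73 to 2.75 at meiosis above the tetraploid at 2.09 and at 4.12 to 4.13 at mitosis below the tetraploid at 4.62 to 4.63. Since the kinds were chosen from these libraries, their shapes are a description.

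Opposite changes were the rarest kind. In 622 genes (3.93%) the haploid rose and the tetraploid fell, and in 563 (3.56%) the haploid fell and the tetraploid rose. Over the 608 of the former with at least 10 counts in every group, the median change was 0.46 for the haploid against -0.51 for the tetraploid, and over 492 of the latter -0.61 and 0.60. The opposing changes were thus smaller than those of the genes that moved together. Opposing changes add up in the interaction, so small ones can suffice for a call. The median interaction over these genes was the larger one, at 1.02 and -1.33. In the kinds that moved together it was -0.86 and 0.66 (weaker rise and fall in the haploid) and 0.73 and -0.70 (in the tetraploid). In the first set the haploid was lower at meiosis and higher at mitosis in 217 genes, and in the second it was higher and then lower in 195. The ploidy difference was called at mitosis and not at meiosis in 202 and 217 genes.

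BcaB08g35619 on B08 rose in the haploid from 4.41, 4.99 and 4.10 CPM to 8.78, 10.9 and 10.4 CPM. In the tetraploid it fell from 3.42, 4.47 and 3.32 CPM to 0.388, 0.266 and 0.259 CPM, on 6, 4 and 4 counts. The forms overlapped at meiosis and were far apart at mitosis, and the interaction was 4.74 (SE 0.36, adjusted p = 1.68e-12, edgeR).

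BcaC04g23628 on C04 rose in the tetraploid from 0.280, 0.391 and 0.355 CPM to 15.02, 14.1 and 11.7 CPM. In the haploid it stood at 2.06, 1.59 and 0.586 CPM at meiosis and at 0.393, 0.611 and 1.04 CPM at mitosis. The haploid fall was called (-1.04, SE 0.38, adjusted p = 0.0174, edgeR), although the libraries of both stages overlapped. It was not called without haploid meiosis replicate 1, haploid meiosis replicate 2 or haploid mitosis replicate 1, and the gene then counted as a rise in the tetraploid alone. The interaction itself was -6.33 (SE 0.52, adjusted p = 7.7e-12, edgeR).

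**Figure D4:**
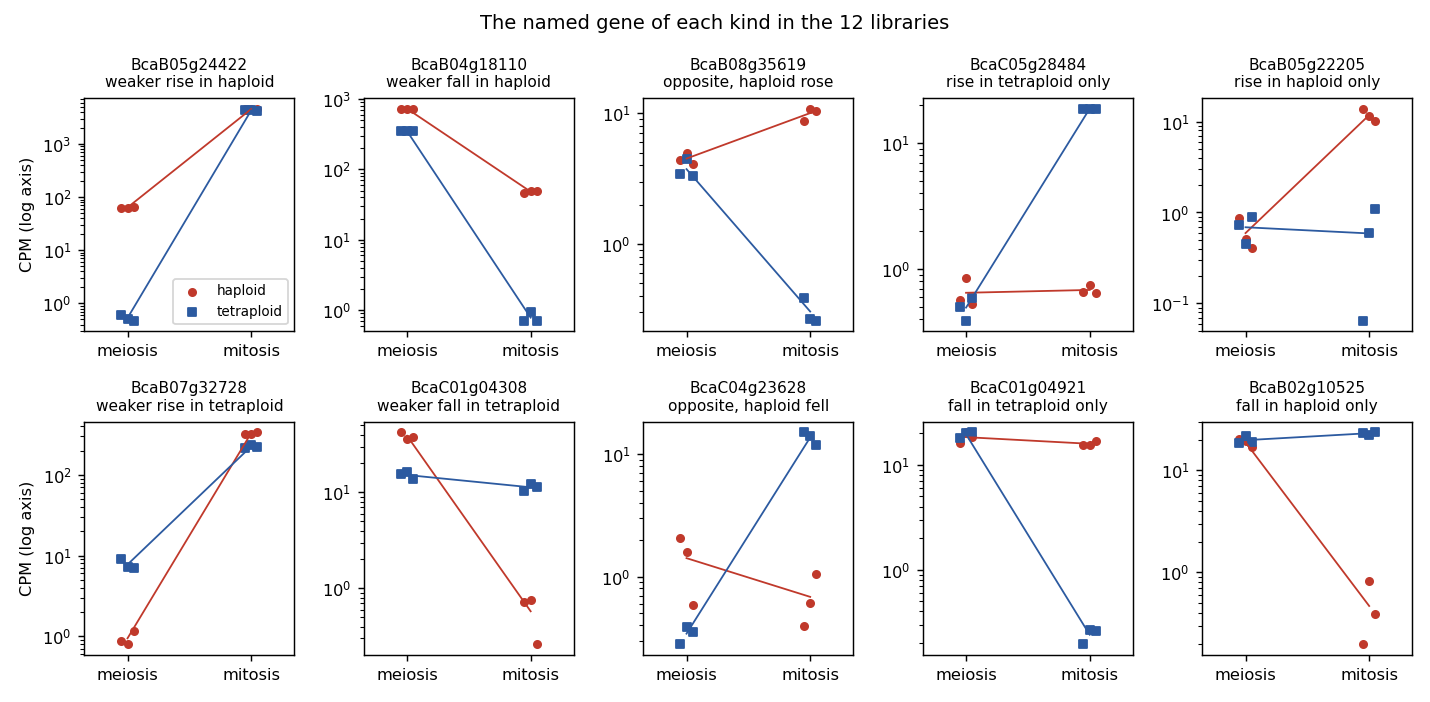
Levels of the named gene of each kind in the 12 libraries, as CPM on log axes, with haploid libraries as red circles, tetraploid libraries as blue squares and lines through the group means. BcaB05g24422 differs between the forms at meiosis (62.5 to 65.9 against 0.474 to 0.616 CPM), while BcaC05g28484 and BcaC01g04921 differ at mitosis.

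Over all called genes, a ploidy difference was called at mitosis and not at meiosis for 5972 genes (37.8%), at meiosis and not at mitosis for 3793 (24.0%), at both in the same direction for 2741 (17.3%) and at both in opposite directions for 2807 (17.8%). For 500 genes (3.16%) the change differed although neither stage was called. Mitosis alone also outnumbered meiosis alone among the 36047 genes with no called interaction, at 6817 (18.9%) against 4103 (11.4%), so that order is not particular to the interaction.

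The median difference between the forms was next read by the size of the stage change. Genes were sorted by the mean of the changes of both forms, which favours neither, among those with at least 10 counts in every group. For 5787 genes with a mean rise of 1.4 to 2-fold, the median of haploid minus tetraploid change was -0.17. It was -0.28 for 4792 genes that rose 2 to 4-fold, -0.44 for 1515 at 4 to 8-fold, -0.60 for 584 at 8 to 16-fold, -0.70 for 398 at 16 to 64-fold and -1.14 for 172 above 64-fold. With this sorting every class of rising genes was below 0, and further below the more it rose. On the falling side the median was 0.24 for 6515 genes at 1.4 to 2-fold and 0.27 for 4278 at 2 to 4-fold. It was 0.19 for 1184 genes at 4 to 8-fold, 0.25 for 411 at 8 to 16-fold, 0.34 for 306 at 16 to 64-fold and 0.74 for 96 above 64-fold. With this sorting the median fall was weaker in the haploid in each class, with no steady order up to 16-fold. Over 18752 genes within 1.4-fold the median was 0.04. The limit of 10 counts matters for large changes. Over all genes tested, the medians were -1.50 for rises of 16 to 64-fold and -1.85 above 64-fold, and 1.08 and 1.23 for falls of these sizes, where many fitted values rest on groups with few or no counts.

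These classes were wide. Among genes that rose 4 to 8-fold the interquartile range of the difference was -1.25 to 0.32, and 207 of the 715 called genes there had the smaller change in the tetraploid. The interaction was called for 25.5% of genes within 1.4-fold, 36.0% of those that rose 2 to 4-fold and 69.8% of those that rose more than 64-fold. Sorting by 1 form makes the change of the other look weaker, because genes picked for a large change in one tend to show less of it in the next. Sorted by the tetraploid change, 5321 genes that rose 2 to 4-fold had a median rise of 0.92 in the haploid against 1.37. Sorted by the haploid change, 4541 genes that rose 2 to 4-fold had median rises of 1.34 (haploid) and 1.31 (tetraploid). In that sorting the median difference showed no order with size. It was 0.08 for rises of 4 to 8-fold, 0.08 at 8 to 16-fold, -0.19 at 16 to 64-fold and -0.01 above 64-fold. For falls it was -0.05 at 2 to 4-fold, -0.15 at 4 to 8-fold, -0.09 at 8 to 16-fold, -0.27 at 16 to 64-fold and 0.31 above 64-fold, so most classes of falls were the stronger ones in the haploid. The relation to size thus depends on which change sorts the genes.

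**Figure D5:**
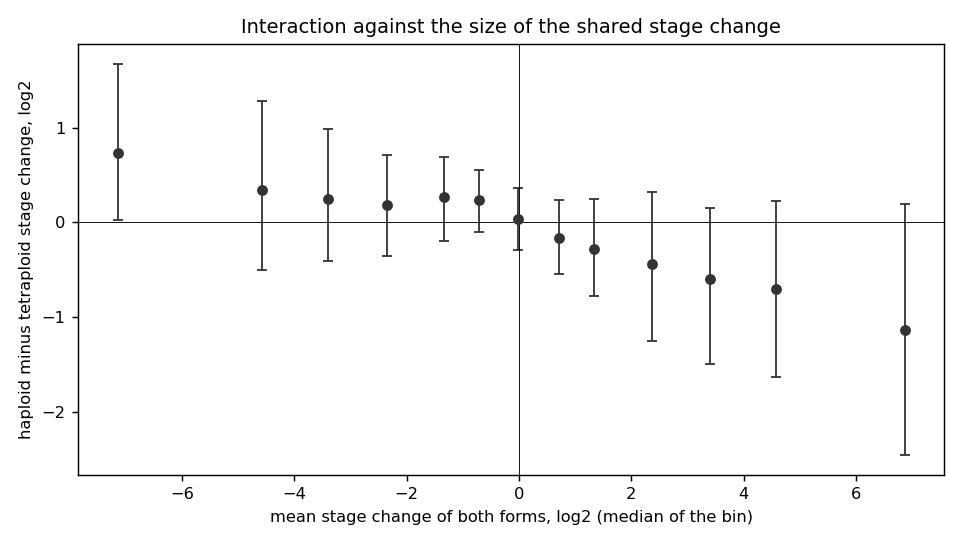
Points give the median of haploid minus tetraploid stage change (log2, y axis) in classes of the mean stage change of both forms (log2, x axis), and bars the interquartile range over genes with at least 10 counts in every group. Medians lie above 0 where genes fell (0.19 to 0.74) and below 0 where they rose (-0.17 to -1.14). The bars cross 0 in every class except falls of more than 64-fold.

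A kind defined on the log scale need not hold in absolute terms. On the CPM scale, the difference of the stage changes had the same sign as on the log2 scale for 14919 of the 15813 called genes (94.3%). The 894 others were nearly all genes that moved in the same direction in both forms, with 361 weaker rises and 329 weaker falls in the haploid and 82 and 118 in the tetraploid. In all 361 of those weaker rises the haploid was called higher at meiosis, and in 319 of them at mitosis too. A rise that is weaker as a ratio and larger in CPM needs a higher start and end, so this direction follows from the sorting. BcaB05g24422 and BcaB04g18110 were among these genes. The haploid gained 191 CPM more than the tetraploid in the former and lost 332 CPM more in the latter, although both changes were weaker as ratios. Of the genes called in 1 form or in opposite directions, 4 had the other sign on the CPM scale.

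The share of genes called depended on their level, as the precision did. Of the 7406 genes averaging under 1 CPM, 10.7% were called, with a median SE of the interaction of 0.93. Of the 2721 genes at 64 CPM and over, 68.7% were called, with a median SE of 0.08. At low levels a small interaction was therefore not detectable at this depth. The share of called genes with the smaller change in the haploid hardly varied with level, between 69.3% and 70.9% over 5 level classes. The sign did vary, with 7.22% of genes negative and 3.46% positive under 1 CPM, and 26.3% negative and 42.4% positive at 64 CPM and over.

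Called interactions were spread over all chromosomes. The share called was 31.2% of 20054 genes on B chromosomes and 30.1% of 27420 on C chromosomes. It ranged from 29.4% to 33.5% over 16 of the 17 chromosomes, with B07 the highest. C03 was lower, at 26.5% of 2554 genes, with 14.8% positive and 11.7% negative. B genes made up 40.6% of weaker rises and 40.4% of weaker falls in the haploid, 37.7% of rises and 38.1% of falls called in the tetraploid alone, and 38.7% of all genes tested. These shares were not tested against each other. The next tested gene along the chromosome was of the same kind in 7.36% of cases for weaker rises in the haploid, where the kind held 6.24% of placed genes. These shares were 7.68% and 6.31% for weaker falls in the haploid, 4.35% and 2.32% for weaker rises in the tetraploid and 2.85% and 1.11% for opposite changes with a haploid fall. Falls called in the haploid alone went the other way, at 1.52% against 1.66%, and none of these differences was tested. The longest unbroken run of 1 kind was 5 genes.

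Each library was also placed on the stage axis of the tetraploid, the line from the mean tetraploid profile at meiosis (0) to that at mitosis (1) in log2 CPM over all genes tested. The haploid libraries lay at 0.0628, 0.0651 and 0.0616 at meiosis and at 0.785, 0.785 and 0.788 at mitosis. Tetraploid libraries left out of the axis in turn lay at 0.0108, 0.0105 and 0.0126 at meiosis and at 0.985, 0.992 and 0.988 at mitosis. The haploid libraries thus sat inward of the tetraploid ones at both ends of this axis, and further so at mitosis. The axis weights genes by their tetraploid change, which, like sorting by that change, tends to make the haploid change look weaker. Leaving out tetraploid libraries does not remove this, and no axis was built from the haploid libraries. They also lay off the axis, by 0.317 to 0.320 of its length at meiosis and 0.418 to 0.422 at mitosis, where tetraploid libraries left out of the axis in turn lay off by 0.182 to 0.188. Position along the axis therefore describes the haploid profile in part. Whether position on this axis has a part in the kinds of interaction was not tested.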

How the data were processed

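RNA-seq libraries of anthers from 4 groups were analysed, 3 libraries each. The authors deposited raw counts (whole numbers with unequal totals) and FPKM for the same genes and libraries. The tools named in the submitters' processing notes, in roles not given, are featureCounts 2.0.1, TopHat2, Bowtie2 2.2.3 and HISAT2 2.1.0. The build, annotation, strand setting, treatment of reads shared by homoeologous copies and the FPKM tool were not given in the sources used here, so values of near-identical copies are uncertain.

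Counts were fitted in R 4.3.3 with edgeR 4.0.16 (TMM, default filter on low counts, 1 mean per group, quasi-likelihood test). The 51860 genes tested of 97149 hold 99.8% of counts. The SE was taken as the log2 change over the root of F. It is not a fitted standard error and is too small for large changes that rest on few counts in a group. Kinds were set from calls at an adjusted p under 0.05. The FPKM were fitted with limma 3.58.1, and DESeq2 1.42.0 was an alternative. Within groups, log2 CPM (prior count 2) had Pearson's r of 0.976 to 0.982 across genes, and no pair agreed within counting noise (chi-square per gene 2.50 to 3.07), so none was treated as 1 library deposited again. This does not show that libraries are independent.

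The named gene of a kind has the largest interaction among its genes with 10 counts in every group, a mean of 10 CPM in the highest group and, for kinds called in 1 form, a change within 0.25 of 0 in the other form. The contrast, kinds and naming rule were chosen with earlier results of these data known. Sorting by the mean change, the limit of 10 counts in every group and the CPM scale were added after seeing the data.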

Additional observations from a re-analysis of the deposited data

Results flagged for a closer look

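The stage change differed between haploid and tetraploid by a test of the difference itself for 15813 genes, and this brought the named genes here. Their interactions were -6.81 for BcaB05g24422, 3.58 for BcaB07g32728, 4.87 for BcaB04g18110, -5.63 for BcaC01g04308, 4.74 for BcaB08g35619, -6.33 for BcaC04g23628, -5.16 for BcaC05g28484, 6.10 for BcaC01g04921, 4.51 for BcaB05g22205 and -5.55 for BcaB02g10525. Each is the largest of its kind by the naming rule, so its size is a maximum and not typical. Each kept its sign and its call under the 20 alternatives run on it, but not its size. FPKM with a pseudocount of 1, which shrinks changes of low genes, gave the smallest values, among them -2.69 for BcaB02g10525, 2.87 for BcaB05g22205, 3.10 for BcaB08g35619, -3.23 for BcaC05g28484 and 3.24 for BcaB04g18110. The highest adjusted p among these was 0.00107, for BcaB05g22205.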

How the results depend on the processing

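The number of called interactions and the number with the smaller change in the haploid stayed within 1.5 times under every alternative fit. They fell out of it at a minimum interaction of 2-fold, with 6911 called, 3033 positive and 3878 negative, and 4935 with the smaller change in the haploid against 1976 in the tetraploid. The larger sign turned with median-of-ratios size factors, DESeq2, FPKM, no filter, a 2-fold minimum, and without haploid mitosis replicate 2 (7196 positive, 7469 negative) or haploid mitosis replicate 3 (7265 and 7532).

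At the 2-fold minimum the kinds held 1641 weaker rises and 1138 weaker falls in the haploid, 453 and 364 in the tetraploid, 329 opposite with a haploid rise, 1109 rises and 689 falls in the tetraploid alone, 411 and 364 in the haploid alone and 32 unsorted. At an adjusted p under 0.01 they held 2067 weaker rises and 2123 weaker falls in the haploid, 801 and 617 for the tetraploid, and 359 and 304 opposite changes with a haploid rise and fall. FPKM (limma-trend, pseudocount 1) gave 1548 weaker falls in the tetraploid, and without a minimum level 3682 rises in the tetraploid alone and 1326 falls in the haploid alone. The cause was not tested.

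Replicate numbers did not pair the libraries, since the 18 same-numbered pairs had deviations correlated at -0.0289 to 0.0227, and 4 of 12 libraries were closest to their own number. A replicate block gave 15384 calls, and 15039 of the 15813 genes kept their kind. With DESeq2 14245 kept it and with FPKM (pseudocount 1) 9578. Of the 15813 genes, 10757 were called and 8826 kept their kind whichever library was left out. BcaC01g04921 also changed kind with FPKM and BcaB02g10525 with median-of-ratios factors and DESeq2, as BcaC01g04308 did with FPKM at a pseudocount of 0.1. Opposite changes stayed called in 615 of 622 and 558 of 563 genes but kept their kind in 318 and 269.

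Leaving out 1 library gave 14487 to 14797 calls. On the stage axis the haploid moved by more than the spread between its libraries while staying inward of the tetraploid. At meiosis it lay at 0.0657 with a prior count of 5, and leave-one-out gave 0.0628 to 0.0671. At mitosis it lay at 0.791 with a prior count of 5 and 0.781 without C03, and leave-one-out gave 0.782 to 0.787. Depth limits genes under 1 CPM most.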

Other observations

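For genes with very large stage changes, the level at the low stage was set against that at the high stage, a measure chosen after seeing the data. Among 209 genes with a mean rise of both forms above 64-fold and at least 100 CPM at mitosis in both, the level at meiosis was 0.156% of that at mitosis in the haploid (median, interquartile range 0.0188 to 1.08) and 0.0531% in the tetraploid (0.00961 to 0.260). It was the higher one in the haploid in 128 of the 209. Of the 120 with a called interaction 88 had the smaller change in the haploid, a share near the 70.1% over all called genes. Among 65 genes with a mean fall above 64-fold and at least 100 CPM at meiosis in both, the level at mitosis was 0.663% of that at meiosis in the haploid (0.419 to 1.33) and 0.120% in the tetraploid (0.0730 to 0.416), and it was the higher one in the haploid in 55, with 48 called interactions of which 45 had the smaller change in the haploid. The percentages varied widely between genes in the haploid, from 0 to 8.26 for rises and from 0.0623 to 6.61 for falls. No minimum was set for the level at the low stage. For rises the lowest percentage was 0 in both forms, so the smallest values rest on few or no counts. For a gene near the minimum of 100 CPM, a percentage like the tetraploid median of 0.0531% also stands for few or no counts.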
